A study of Arabidopsis thaliana with 9 samples.

Results

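Stomata are the pores of the leaf epidermis, and the 10 genes described here act in the cell lineage that makes them. They were picked out by locus code as known genes of stomatal development, with earlier results of these data known, and all 10 of 10 were among the 20777 loci of the table. The genes are SPCH (AT5G53210), MUTE (AT3G06120), FAMA (AT3G24140), ICE1 (AT3G26744), SCRM2 (AT1G12860), TMM (AT1G80080), EPF1 (AT2G20875), EPF2 (AT1G34245), SDD1 (AT1G04110) and BASL (AT5G60880). Their transcripts were measured with Affymetrix ATH1 arrays, which carry short probes to Arabidopsis thaliana genes, in the vegetative part of Col-0 seedlings that had reached growth stage 1.04. There were 9 arrays, with 3 biological repeats for each of 3 genotypes. The first genotype is the scarecrow mutant scr-3 (scr), the second the short-root mutant shr-5 (shr) and the last the wild type (WT). SCARECROW and SHORT-ROOT are transcription factors of the GRAS family, known above all for their part in the layers of the root, and the series title asks how they act on leaf growth and S phase. All plants were grown in vitro on MS medium at 22 °C, with days of 16 h and nights of 8 h. The tissue was a mixture of many cell types, each mutant was represented by 1 allele, and the number of plants in a repeat is not stated.

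In the stomatal lineage an epidermal cell first divides unequally, and its small daughter passes through a short series of divisions before it becomes a guard mother cell and then a pair of guard cells. The bHLH proteins SPCH, MUTE and FAMA drive entry into the lineage, the change to a guard mother cell and the final guard cell step, each as a dimer with ICE1 (also called SCREAM) or its paralogue SCRM2. The peptides EPF1 and EPF2 are secreted by lineage cells and limit how many stomata form, through receptor kinases of the ERECTA family and the receptor-like protein TMM, which signal through a MAP kinase cascade. SDD1 is a subtilisin-like protease that also limits stomatal number, and BASL is a polarity protein of the unequal divisions.

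The arrays agreed closely over all loci, with Pearson correlations of 0.983 to 0.997 among 8 of them, while shr replicate 3 stood apart at 0.970 to 0.979. Values are RMA expression on the log2 scale and ran from 2.90 to 14.03, and precision is limited by how few arrays there are. SHR itself lay at 4.70, 4.73 and 4.89 on the shr arrays, well under its values of 6.57 to 6.81 on the WT arrays. SCR lay at 7.13 to 7.63 on the scr arrays and 7.35 to 7.60 on the shr arrays, against 7.94 to 7.99 on the WT arrays, and so does not tell scr from shr. The position of the probes relative to the mutations is not stated. The leaf markers CA1, GAPA and RCA lay between 12.79 and 13.86 on every array. Of the root list, the endodermis gene CASP1 lay between 5.14 and 5.39, and PYK10, also expressed in hypocotyls, between 10.70 and 11.68. Whether root tissue was present was not tested. The table carries no call of detection.

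In shr, SPCH, TMM, SDD1, SCRM2 and EPF1 fell by 0.49 to 0.69 on the log2 scale against WT, which are levels 1.41-fold to 1.61-fold below WT. None of the 10 genes rose there, and the shr mean was the lowest of the 3 genotypes for all 10. In scr none of the 10 passed the test against WT, and the nearest to it was SDD1, at -0.49. A gene was called changed at an adjusted p under 0.05, from limma's moderated test fitted to all 9 arrays with Benjamini-Hochberg adjustment across the 20777 loci. By that rule 5 of 10 genes fell in shr, where 8.14% of all loci were called, 4.35% higher and 3.79% lower. In scr 0 of 10 were called, where 0.366% of all loci were. Because RNA of the whole vegetative part was measured, fewer cells of the lineage and less RNA per cell cannot be told apart in any of these differences.

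**Figure D1:**
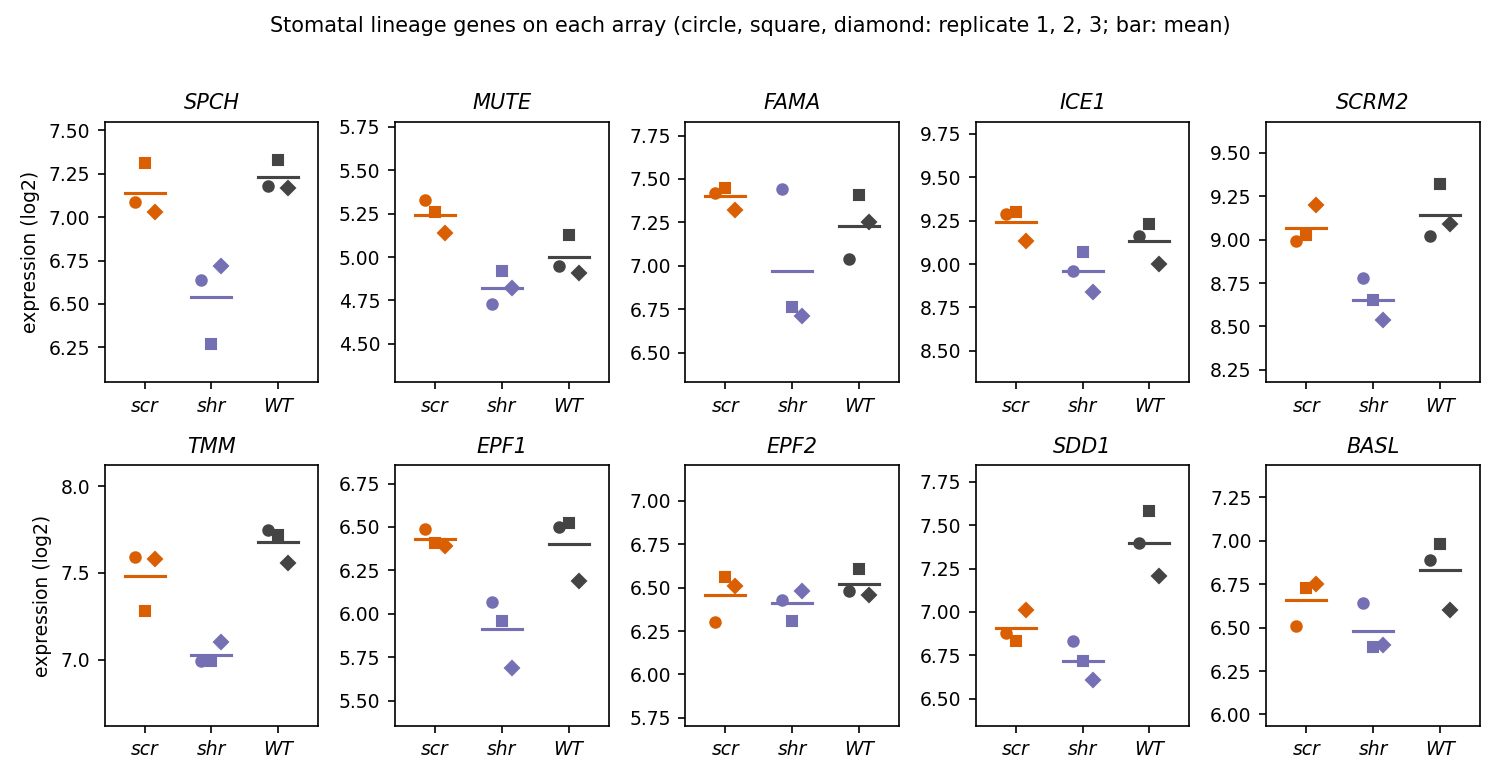
Expression of the 10 stomatal lineage genes (log2 scale, vertical axes of equal length) on the 3 arrays each of scr, shr and WT; points are arrays and bars are group means. The shr points of SPCH, SCRM2, TMM, EPF1 and SDD1 lie below every WT point, and those of EPF2 mix with the other groups.

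The bHLH genes that drive the lineage differed in their values. SPCH, which starts the lineage, lay at 7.09, 7.31 and 7.03 on the scr arrays, at 6.64, 6.27 and 6.72 on the shr arrays, and at 7.18, 7.33 and 7.17 on the WT arrays. Every shr array was below every scr and WT array, whereas scr and WT overlapped. SPCH fell by 0.69 in shr against WT (SE 0.13, 95% confidence interval -0.98 to -0.40, limma adjusted p = 0.0143), the largest difference from WT among the 10 genes. SPCH no longer passed when WT replicate 2 was left out (adjusted p = 0.0646). In scr the difference from WT was -0.08, with an interval of -0.37 to 0.20 (limma adjusted p = 0.888).

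MUTE, which ends the divisions of the precursor, lay at 5.33, 5.26 and 5.14 on the scr arrays, at 4.73, 4.92 and 4.82 on the shr arrays, and at 4.95, 5.13 and 4.91 on the WT arrays. The scr arrays were all above the WT arrays, by a narrow margin, and the shr arrays overlapped with WT. Its difference from WT was 0.25 in scr (interval 0.05 to 0.45, limma adjusted p = 0.325) and -0.17 in shr (interval -0.37 to 0.03, limma adjusted p = 0.274), and neither passed. MUTE was the only 1 of the 10 genes in the lower 40% of all loci by mean signal.

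FAMA, which acts in the last division and in guard cell identity, lay at 7.42, 7.45 and 7.32 on the scr arrays, at 7.44, 6.76 and 6.71 on the shr arrays, and at 7.04, 7.41 and 7.25 on the WT arrays. The shr arrays split into shr replicate 1, at the level of scr, and shr replicates 2 and 3, below every WT array. The SD of 0.41 over the shr arrays was the largest of any gene and group among the 10 genes. With all arrays the difference of FAMA in shr against WT was -0.26 (interval -0.68 to 0.15, limma adjusted p = 0.423). Without shr replicate 1 it was -0.50 and passed (limma adjusted p = 0.0371), and without shr replicate 3 it was -0.14, so that 1 array decides this value. In scr the difference was 0.16 (interval -0.25 to 0.58, limma adjusted p = 0.829).

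Of the paralogous partners of these factors, SCRM2 fell in shr and ICE1 did not pass the test. SCRM2 lay at 8.99, 9.03 and 9.20 on the scr arrays, at 8.78, 8.65 and 8.54 on the shr arrays, and at 9.02, 9.32 and 9.09 on the WT arrays. The shr arrays were below all others, and scr and WT overlapped. It fell by 0.49 in shr against WT (SE 0.11, interval -0.73 to -0.25, limma adjusted p = 0.0253), but did not pass when WT replicate 2, WT replicate 3 or shr replicate 2 was left out (adjusted p of 0.0885, 0.0668 and 0.0674) and with shr and WT arrays alone (0.0629). ICE1 lay at 9.29, 9.30 and 9.13 on the scr arrays, at 8.96, 9.07 and 8.84 on the shr arrays, and at 9.16, 9.23 and 9.0 on the WT arrays. Its shr and WT arrays overlapped, and the difference from WT was -0.18 in shr (interval -0.39 to 0.04, limma adjusted p = 0.286). In scr the differences of SCRM2 and ICE1 were -0.07 and 0.11. How far the probes of these paralogues bind both transcripts is not stated.

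The receptor-like gene TMM gave the smallest adjusted p of the 10 genes in shr. It lay at 7.59, 7.28 and 7.58 on the scr arrays, at 6.99, 6.99 and 7.10 on the shr arrays, and at 7.75, 7.72 and 7.56 on the WT arrays. The shr arrays were close together and below every scr and WT array. TMM fell by 0.65 in shr against WT (SE 0.10, interval -0.88 to -0.42, limma adjusted p = 0.00720), and this call held in all 9 fits that left out 1 array, with adjusted p up to 0.0370. In scr the difference was -0.20 (interval -0.43 to 0.03, limma adjusted p = 0.536), and the scr and WT arrays overlapped.

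The peptide genes EPF1 and EPF2 had different values in shr. EPF1, expressed in later lineage cells, lay at 6.49, 6.41 and 6.39 on the scr arrays, at 6.07, 5.96 and 5.69 on the shr arrays, and at 6.50, 6.52 and 6.19 on the WT arrays. The shr arrays were below all others, and scr lay within the range of WT. EPF1 fell by 0.50 in shr against WT (SE 0.12, interval -0.77 to -0.22, limma adjusted p = 0.0380), which is the call nearest to the threshold among the 5. It did not hold in 6 of the 9 fits that left out 1 array, namely WT replicate 1, WT replicate 2, each scr array and shr replicate 2 (adjusted p up to 0.135), nor with shr and WT arrays alone (0.103). EPF2, expressed in the earliest lineage cells, lay at 6.30, 6.56 and 6.51 on the scr arrays, at 6.43, 6.31 and 6.48 on the shr arrays, and at 6.48, 6.61 and 6.46 on the WT arrays. All 3 groups overlapped. Its differences from WT were -0.06 in scr (interval -0.27 to 0.15) and -0.11 in shr (interval -0.31 to 0.10, limma adjusted p = 0.512), so a fall of the size of SPCH or TMM lies outside its interval in shr. Whether EPF1 and EPF2 differ from each other in their response was not tested.

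SDD1, the protease gene, was low in both mutants. It lay at 6.88, 6.83 and 7.01 on the scr arrays, at 6.83, 6.72 and 6.61 on the shr arrays, and at 7.40, 7.58 and 7.21 on the WT arrays. Every mutant array was below every WT array, while the mutants overlapped with each other. SDD1 fell by 0.68 in shr against WT (SE 0.11, interval -0.92 to -0.43, limma adjusted p = 0.00787), and the call held in all 9 fits without 1 array (adjusted p up to 0.0322). In scr the difference of -0.49 (SE 0.11, interval -0.73 to -0.24) did not pass over all loci (limma adjusted p = 0.112, unadjusted p = 0.00143). Without shr replicate 3, which enters that fit through the shared estimate of the spread, it passed (adjusted p = 0.0402). The interval of shr minus scr for SDD1 was -0.43 to 0.06.

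The polarity gene BASL lay at 6.51, 6.73 and 6.75 on the scr arrays, at 6.64, 6.39 and 6.40 on the shr arrays, and at 6.89, 6.98 and 6.60 on the WT arrays. The shr and WT arrays overlapped by the single pair of shr replicate 1 and WT replicate 3. Its difference from WT was -0.35 in shr (interval -0.63 to -0.07) and did not pass over all loci (limma adjusted p = 0.117). In scr it was -0.16 (interval -0.44 to 0.11, limma adjusted p = 0.704).

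**Figure D2:**
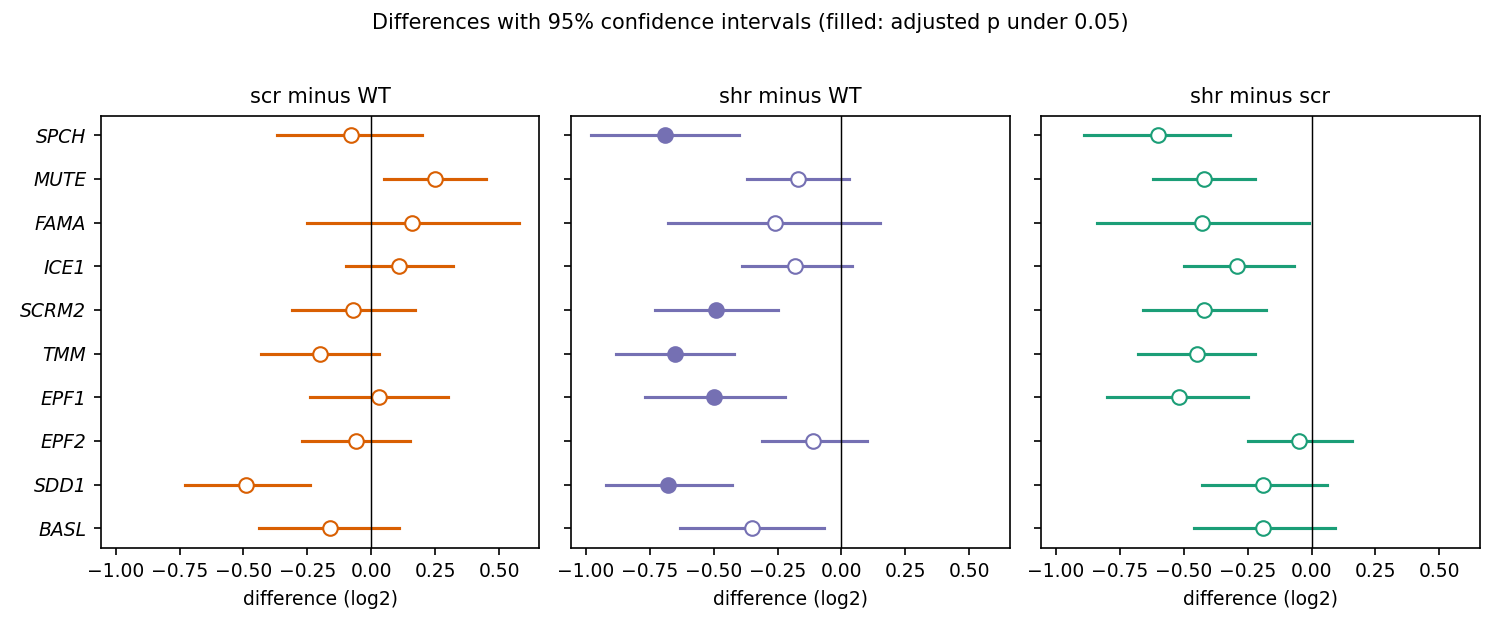
Differences in log2 expression of the 10 genes for scr minus WT, shr minus WT and shr minus scr, as points with 95% confidence intervals from limma; filled points passed at an adjusted p under 0.05. Filled points stand in the shr minus WT panel alone, for SPCH, SCRM2, TMM, EPF1 and SDD1, and every point of the shr minus scr panel lies below 0.

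Over the 10 genes the median difference was -0.07 in scr and -0.42 in shr against WT, where the medians over all loci were 0.00 and -0.01. In shr all 10 differences were below 0, as were 52.5% of those of all loci, and the arrays of 5 genes did not overlap with WT, all 5 lower, as was so for 15.1% of all loci. In scr 6 differences were below 0 (48.5% of all loci) and 4 above, and the arrays did not overlap with WT for SDD1 (lower, 10.6% of all loci) and MUTE (higher, 11.5% of all loci). The mean over the 10 genes, as a difference from the WT mean, was -0.07, -0.04 and -0.05 on the scr arrays, -0.30, -0.45 and -0.46 on the shr arrays, and -0.02, 0.13 and -0.11 on the WT arrays. The scr values thus lay inside the spread of WT, and shr replicate 3, the array that stood apart, gave nearly the value of shr replicate 2. Without shr replicate 3 again 5 of the 10 genes fell in shr, and no gene lost or gained a call in that comparison.

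The comparison of shr with scr tests whether the mutants differ. None of the 10 genes passed it (limma adjusted p of 0.0606 to 0.829, where 1.34% of all loci passed), although 7 were lower in shr at an unadjusted p under 0.05, as were 8.24% of all loci. All 10 differences were below 0 (52.5% of all loci), and the arrays of 6 genes did not overlap, all lower in shr, as for 10.8% of all loci. SPCH differed by -0.60 (interval -0.89 to -0.32, adjusted p = 0.0606), EPF1 by -0.52 (interval -0.80 to -0.25, adjusted p = 0.0720), TMM by -0.45 (interval -0.68 to -0.22, adjusted p = 0.0705) and MUTE by -0.42 (interval -0.62 to -0.22, adjusted p = 0.0619). With every array shifted to a common median, EPF1, TMM and MUTE passed (limma adjusted p of 0.0469, 0.0448 and 0.0387). That shift moved the median difference of all loci here from -0.01 to -0.05. Over all loci it gave 137 higher and 231 lower calls, in place of 159 and 120. EPF2 gave the value nearest to 0, at -0.05 (interval -0.25 to 0.16). Those of the 10 genes that were called in shr and not in scr are therefore not shown to differ between the mutants at this threshold.

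Across the 9 arrays the 10 genes were related in different degrees, given here as Pearson correlations without a test, since the arrays share genotype differences and normalisation. ICE1 and MUTE were the most alike (r = 0.894), followed by ICE1 and EPF1 (r = 0.883), SCRM2 and EPF1 (r = 0.872) and SDD1 and BASL (r = 0.855). EPF2 and MUTE were the least alike (r = 0.0835). With each group's mean removed, which leaves the spread between repeats, SPCH and TMM had r = -0.190 in place of 0.810, while SCRM2 and SDD1 had r = 0.814 in place of 0.799. Among all other loci, those most like SPCH over the 9 arrays were PRPL28 (AT2G33450, r = 0.968), a plastid ribosomal protein gene, AT2G34060 (r = 0.966) and AT4G36105 (r = 0.961). For TMM they were SRS (AT1G11870, r = 0.980), a seryl-tRNA synthetase gene, AT2G43560 (r = 0.972) and AT4G16980 (r = 0.969). For FAMA they were AT5G40060 (r = 0.949), AT3G19080 (r = 0.944) and AT1G49010 (r = 0.941). None of these was a member of the 10, and TMM took place 524 among the loci most like SPCH.

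Of 33 measured genes in the 4 other lists of the stomatal pathway, 1 rose and 3 fell in shr, where 4.35% of all loci were called higher and 3.79% lower, and 0 passed in scr by limma's test, where 0.366% of all loci did. At an unadjusted p under 0.05 there were 7 higher and 6 lower in shr, where 12.4% and 12.2% of all loci were, and 2 higher and 3 lower in scr, where 5.28% and 5.71% of all loci were. Their median difference was 0.01 in both mutants. Among the ligands EPFL9, known as STOMAGEN, encodes a peptide made in the mesophyll that promotes stomata. It lay at 7.91, 8.11 and 8.02 on the scr arrays, at 8.19, 7.57 and 7.86 on the shr arrays, and at 8.65, 8.51 and 8.49 on the WT arrays. Every mutant array was below every WT array. EPFL9 fell by 0.68 in shr (SE 0.14, limma adjusted p = 0.0239), a call lost without any 1 of the WT arrays (adjusted p up to 0.0803) and with shr and WT arrays alone (0.0710). In scr its difference was -0.54 (limma adjusted p = 0.181), which passed with scr and WT arrays alone (0.0171). The other 2 measured peptide genes of this family, AT5G10310 and EPFL6, did not pass in either mutant.

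The receptor kinases that act with TMM gave no call. The differences of ER, ERL1 and ERL2 in shr were 0.04, -0.09 and -0.16, and in scr they were 0.09, 0.02 and 0.27. The signs of ER in shr and of ERL1 in both mutants changed with the array left out, and ER in shr was -0.02 with arrays shifted to a common median. ERL2 lay at 6.81, 6.82 and 5.90 on the shr arrays, so that its low mean there came from shr replicate 3, and without that array its difference was 0.14. SERK1, a co-receptor kinase gene, lay at 6.89, 6.82 and 6.79 on the scr arrays, at 7.02, 7.26 and 6.88 on the shr arrays, and at 6.60, 6.39 and 6.57 on the WT arrays. SERK1 rose by 0.53 in shr (SE 0.11, limma adjusted p = 0.0189), a call that did not hold when WT replicate 2 or WT replicate 3 was left out (adjusted p up to 0.0778) or with shr and WT arrays alone (0.0636). In the list of the MAP kinase cascade with BIN2 and the BSL phosphatases, 0 of 11 measured genes passed in shr and 0 in scr by limma's test. Of all loci 8.14% were called in shr and 0.366% in scr. At an unadjusted p under 0.05, 3 of the 11 were higher and 1 lower in shr, where 12.4% and 12.2% of all loci were. In scr 0 of the 11 reached it, where 5.28% of all loci were higher and 5.71% lower.

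Among genes of polarity, lineage transcription and division, 2 of 12 fell in shr and 10 did not pass, where 3.79% of all loci were called lower. SOL1, a CXC-domain protein gene that acts in changes of cell state in the lineage, lay at 6.59, 6.55 and 6.67 on the scr arrays, at 5.95, 5.91 and 5.96 on the shr arrays, and at 6.70, 6.75 and 6.81 on the WT arrays. The shr arrays were close together and far below the other groups, and scr lay just below WT. SOL1 fell by 0.82 in shr against WT (SE 0.07, limma adjusted p = 3.85e-04) and by 0.66 in shr against scr (SE 0.07, limma adjusted p = 0.00426), and both calls held in all 9 fits without 1 array. CSLD5, a cellulose synthase-like gene of cell plates that is needed in divisions of the lineage, lay at 8.17, 8.33 and 8.33 on the scr arrays, at 8.04, 8.17 and 8.02 on the shr arrays, and at 8.62, 8.65 and 8.58 on the WT arrays. It fell by 0.54 in shr (SE 0.08, limma adjusted p = 0.00477), also in all 9 of those fits, and its difference in scr was -0.34 (limma adjusted p = 0.114).

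Genes of mature guard cells gave 5 falls among 10 measured in shr, where 3.79% of all loci were called lower. None of the 10 passed in scr by limma's test, while an unadjusted p under 0.05 was reached by 3 that were higher and 2 that were lower, as by 5.28% and 5.71% of all loci. BLUS1, a kinase gene of blue light signalling in guard cells, fell by 0.63 (SE 0.13, adjusted p = 0.0246), MYB60, a guard cell transcription factor gene, by 0.48 (SE 0.09, adjusted p = 0.0155) and HT1, a kinase gene of the response to carbon dioxide, by 0.46 (SE 0.11, adjusted p = 0.0409). The potassium channel genes KAT1 and KAT2 fell by 0.44 and 0.43. Of the 5 genes that fell, HT1 alone lay in the lower 40% of all loci by mean signal. KAT2 lay at 7.05, 6.98 and 7.24 on the scr arrays, at 6.46, 6.50 and 6.43 on the shr arrays, and at 6.79, 6.98 and 6.89 on the WT arrays, and was lower in shr than in scr by 0.63 (SE 0.09, limma adjusted p = 0.0164), a call lost without any 1 of the scr arrays (adjusted p up to 0.0626) and with shr and scr arrays alone (0.0813). The anion channel gene SLAC1 and the kinase gene OST1 were not among them. Their differences in shr were 0.44 (adjusted p = 0.0697) and 0.17, neither past the threshold. Each of the 5 calls against WT was lost without WT replicate 2 or 3. HT1 held in 2 of the 9 fits without 1 array, KAT1 in 3, BLUS1 and KAT2 in 6 and MYB60 in 7, and with shr and WT arrays alone BLUS1 (adjusted p = 0.0629) and HT1 (0.102) did not pass.

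**Figure D3:**
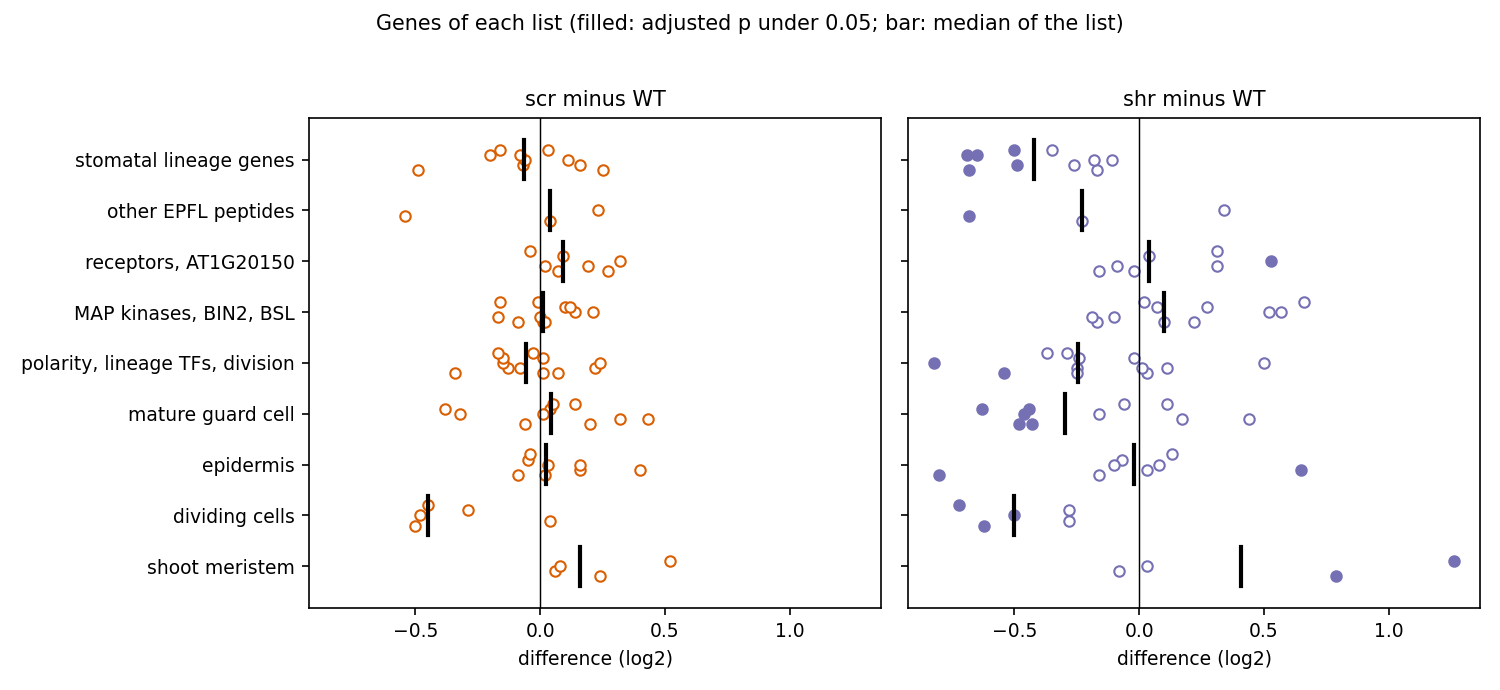
Differences in log2 expression against WT for each measured gene of the stomatal lineage, of 4 other stomatal pathway lists and of 4 marker lists, in scr (left) and shr (right); filled points passed at an adjusted p under 0.05 and bars are medians of a list. The median of the stomatal lineage genes was -0.07 in scr and -0.42 in shr, that of dividing cells -0.45 and -0.50.

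Marker lists of other cells were read against the same shares of all loci, which were 4.35% called higher and 3.79% called lower in shr and 0.366% called in scr. Of 8 measured epidermal genes 1 rose and 1 fell in shr and 0 passed in scr (limma; 1 higher at an unadjusted p under 0.05, as were 5.28% of all loci), with medians of 0.03 in scr and -0.02 in shr. ATML1 and PDF2, which specify the epidermis, gave 0.03 and -0.16 in shr. The wax genes CER1 and CER6 changed in opposite directions, CER1 falling by 0.80 (adjusted p = 0.00452) and CER6 rising by 0.65 (adjusted p = 0.00840). The mean of the epidermal list, as a difference from the WT mean, was 0.01 to 0.12 on the scr arrays, -0.10 to 0.02 on the shr arrays and -0.05 to 0.04 on the WT arrays, so it overlapped with WT in shr. The mean of the dividing cell list lay below WT in both mutants, at -0.41 to -0.29 on the scr arrays, -0.49 to -0.46 on the shr arrays and -0.09 to 0.05 on the WT arrays. In shr 3 of 5 fell, CYCB1;1 by 0.72, KNOLLE by 0.62 and CDKB2;1 by 0.50. In scr 0 of 5 passed by limma's test, where 4 were lower at an unadjusted p under 0.05, as were 5.71% of all loci. There KNOLLE was at -0.50 (adjusted p = 0.0510), CDKB2;1 at -0.48 (0.0522), CYCB1;1 at -0.45 (0.146) and CYCA2;3, a cyclin gene, at 0.04. KNOLLE, CDKB2;1 and CYCB1;1 passed in scr with scr and WT arrays alone (adjusted p of 0.0258, 0.0258 and 0.0363) and with array weights. Of the fits without 1 array, they passed only in that without shr replicate 3. Of 4 shoot meristem genes STM and KNAT1 rose in shr, by 0.79 (adjusted p = 0.0121) and 1.26 (adjusted p = 0.00251). WUS and CLV3 were there at -0.08 and 0.03. In scr none of the 4 passed, with KNAT1 at 0.52 (limma unadjusted p = 0.00831, adjusted p = 0.226) and STM at 0.24. Of 4 measured trichome genes GL1 and TRY fell in shr, by 0.82 (adjusted p = 0.0365) and 0.58 (adjusted p = 0.0339). GL2 and TTG1 were there at -0.04 and 0.03. WUS, CLV3, GL1 and TRY lay in the lower 40% of all loci by mean signal. Leaving out 1 array ended either trichome call in 5 of 9 fits (adjusted p up to 0.122 and 0.110). Of 6 root genes PYK10, also expressed in hypocotyls, rose in shr by 0.84, and of 3 measured mesophyll genes none passed (limma; 1 lower in shr at an unadjusted p under 0.05, as were 12.2% of all loci). The part of dividing, meristem or trichome cells in the values of the stomatal lineage genes was not tested.

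**Figure D4:**
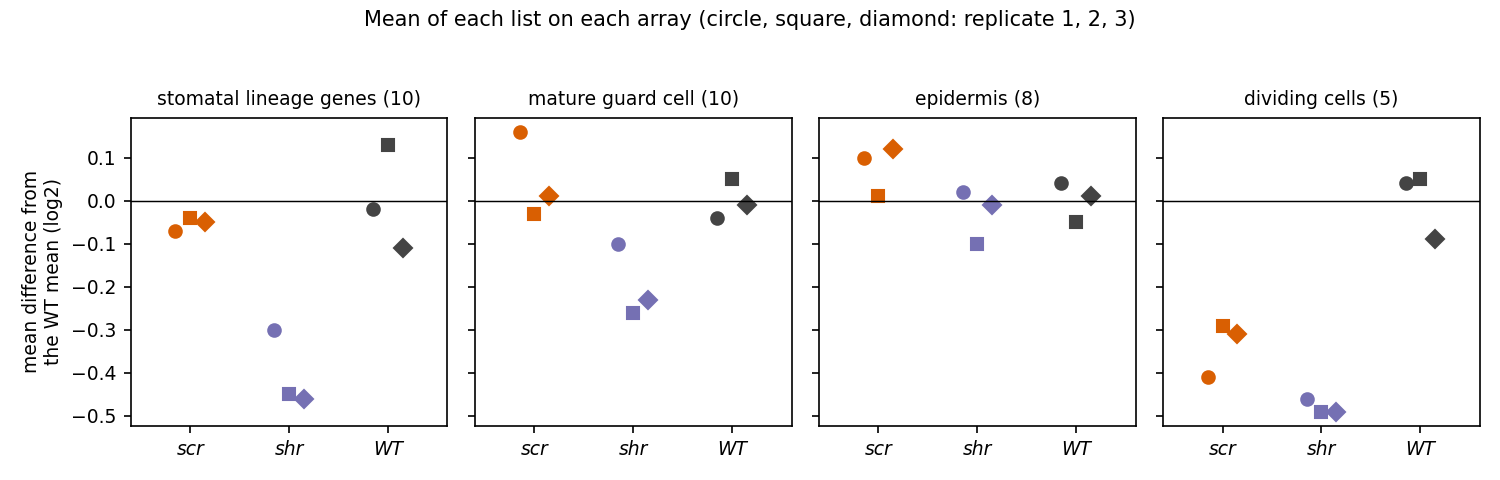
Mean log2 difference from the WT mean over the genes of 4 lists on each array of scr, shr and WT (the number of genes in parentheses). The stomatal lineage genes lie at -0.30 to -0.46 on the shr arrays and within the WT spread on the scr arrays, and the mean of the dividing cell genes is below WT on every array of both mutants.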

How the data were processed

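RNA was labelled and hybridised to ATH1 arrays by the standard Affymetrix protocol, per the labels' protocols. The deposited table holds log2 values, which the submitters' processing notes say the authors made with RMA. That method subtracts background, makes the arrays' quantiles equal and combines each set of probes into 1 value. No source used here gives its version, how probes were assigned to loci or the genome build, so no coordinates or sequences are printed. That the scale is log2 was read from the values' range.

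Each of 20777 loci has 1 row, and 20508 matched a RefSeq table of TAIR10.1, used for names only. A single linear model with 1 mean for each genotype was fitted to the 9 arrays in limma 3.58.1 under R 4.3.3 (6 residual and 2.99 prior degrees of freedom), two-sided, adjusted over all loci, threshold 0.05, no filter. SDs are over 3 arrays. On simulated data with 200 changed loci this recovered 85.0% of 2-fold and 55.9% of 1.5-fold changes in shr against WT, and 84.2% and 53.8% in scr against WT. Of its calls 4.74% and 5.48% were false. The simulated noise was independent between arrays, with 1 spread per locus and no array apart. In the data 1691 and 76 loci were called, so these shares need not hold for them. Alternatives were a common median, no dim loci, the compared groups alone, the replicate number as a block, a trended robust prior, array weights and each array left out. Arrays of the same replicate number were compared by their deviations from the group means. For numbers 1, 2 and 3 these correlated at 0.277, 0.138 and 0.107 in scr and WT. They correlated at 0.204, -0.106 and 0.0994 in shr and WT, and at 0.444, -0.0448 and 0.335 in shr and scr. The labels state no pairing, and these values do not settle it. The main fit left the replicate number out in every comparison. With it as a block 52 loci were called in scr against WT, in place of 76. The 10 genes and all lists, 97 loci of which 83 were measured, were chosen with earlier results of these data known. Named from the other lists are genes past the threshold, at most 4 per list and comparison, plus ER, ERL1, ERL2 and EPFL9. ATML1, PDF2, EPFL6, AT5G10310, SLAC1, OST1, CYCA2;3, WUS, CLV3, GL2, TTG1 and the leaf and root markers were added after their values were seen.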

Additional observations from a re-analysis of the deposited data

Results flagged for a closer look

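Some genes differed between the mutants in their difference from WT. By limma's test of shr minus scr these were SOL1 (-0.66, adjusted p = 0.00426), KAT2 (-0.63, adjusted p = 0.0164), the wax gene CER1 (-0.70, adjusted p = 0.0229) and the root and hypocotyl gene PYK10 (0.54, adjusted p = 0.0195). The call of CER1 was lost without any 1 of the scr arrays (adjusted p up to 0.108) and with shr and scr arrays alone (0.102). That of PYK10 was lost without any 1 of the scr arrays or shr replicate 2 (adjusted p up to 0.0853) and with shr and scr arrays alone (0.0859). That of KAT2 was lost without any 1 of the scr arrays (adjusted p up to 0.0626) and with shr and scr arrays alone (0.0813), and that of SOL1 held in these fits. For MUTE (shr minus scr -0.42, adjusted p = 0.0619) and ICE1 (-0.29, adjusted p = 0.173) every scr array lay above the WT mean and every shr array below it, while the test of that difference did not pass.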

How the results depend on the processing

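With arrays shifted to a common median, 3 of the 10 stomatal lineage genes passed in shr against scr, in place of 0. Over all loci 368 were called there in place of 279, with 231 lower in place of 120. With the compared groups alone 3 of them fell in shr against WT, and over all loci 577 were called in scr against WT in place of 76, 807 in shr against WT in place of 1691, and 24 between the mutants in place of 279. Array weights gave 491, 2657 and 594 loci, and 1 lineage gene each in scr against WT (SDD1) and shr against scr (SPCH). With the replicate number as a block, EPF1 passed in shr against scr (1 of the 10, limma adjusted p = 0.0456) and CER1 no longer did (0.0530), though the labels state no pairing. The counts of lineage genes in scr and shr against WT stayed at 0 and 5. Leaving out 1 array gave 0 to 1 lineage genes in scr against WT, 2 to 6 in shr against WT (2 without WT replicate 2, 3 without shr replicate 2) and 0 to 1 in shr against scr. Over all loci it gave 17 (without scr replicate 3) to 595 (without shr replicate 3), 654 (without WT replicate 2) to 2643 (without shr replicate 3) and 33 (without scr replicate 2) to 610 (without shr replicate 3). Among the 10 genes no difference in shr against WT or shr against scr turned its sign. In scr against WT, values that did not pass turned sign with 1 array left out for SCRM2 (-0.14 to 0.02), EPF1 (-0.08 to 0.09), EPF2 (-0.11 to 0.02), ERL1 (-0.04 to 0.09) and BLUS1 (-0.03 to 0.12). The same held in shr against WT for ER (-0.01 to 0.14, and -0.02 with a common median), ERL1 (-0.17 to 0.01) and ERL2 (-0.32 to 0.14, and 0.03 with array weights). In shr against scr it held for ER (-0.10 to 0.05, and 0.03 with array weights), EPFL9 (-0.30 to 0.01), KAT1 (-0.14 to 0.02) and CDKB2;1 (-0.07 to 0.01). The cause of these changes was not tested. The shift to a common median moved the median of all loci in shr against WT to -0.07 and the calls there to 687 higher and 1279 lower, in place of 904 and 787. MUTE, among the dim loci, is the member whose signal limits its value most plainly.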
